A study of Brassica rapa with 12 samples.

Results

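AOP2 is an enzyme of the mustard-oil pathway, and 3 gene copies of it in Brassica rapa (the species of Chinese cabbage and turnip) are described here in stems and buds of wild type and transgenic plants. The copies were taken by identifier, namely Bra034180, Bra000848 and Bra018521, which makes 3 of the 41020 genes in the deposited count table. The table holds identifiers without names, so the AOP2 name rests on the identifiers alone and could not be checked against a sequence. The copies were chosen by identifier when their levels in these 4 groups were already known, Bra034180 having the deepest fitted loss in silenced stems of all genes tested. Their levels and differences are therefore given as a description, with no p-value.

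Messenger RNA was sequenced in 12 libraries, 3 each from wild type stem, BrCHR39-silenced stem, wild type bud and BrCHR39-silenced bud. All plants were 8 weeks old and had grown in soil and vermiculite under long days. BrCHR39 is named in the series as a chromatin remodelling ATPase that favours apical dominance, the restraint of side shoots by the shoot tip. The silencing construct, its promoter, the number of lines, whether plants were pooled, and whether the buds were flower buds or side-shoot buds are not stated. BrCHR39 has no identifier in the tables used, so its level was not analysed here and the genotype labels were not checked on it. Neither were tissue markers, which carry no names either. Separate plants are not stated for the libraries within a group, so the spread among them may be technical. The libraries held 12275190 to 15693349 reads assigned to genes.

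Glucosinolates are sulfur-rich defence compounds of the cabbage order, which the enzyme myrosinase breaks down to pungent mustard oils when tissue is damaged. The aliphatic ones are built from methionine in steps: the side chain is lengthened, the core structure is made, and the side chain is then modified. AOP2, a 2-oxoglutarate-dependent dioxygenase known from Arabidopsis, acts in this last phase and turns methylsulfinylalkyl glucosinolates into alkenyl glucosinolates, the substrates of a further hydroxylation in Brassica crops. Alkenyl glucosinolates contribute to the sharp taste of Brassica vegetables.

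Reads of all 3 copies were present in every wild type library and, apart from a single read, in no silenced library. Summed over the copies, wild type stems held 5999 reads and silenced stems 0. Wild type buds held 592 reads and silenced buds 1. In wild type plants the make-up of the AOP2 transcript differed between the tissues. Bra034180 made up nearly all of it in the stem, whereas Bra000848 and Bra018521 made up nearly all of it in the bud. This went with a much lower level of Bra034180 in bud, while Bra000848 and Bra018521 differed far less between the tissues. The labels do not say whether silenced and wild type plants share a genetic background, and the mapping of reads to these copies in silenced plants was not tested. A loss of transcript by silencing, a difference in background and reads that no longer map to a copy therefore cannot be told apart in any of the losses and fold limits given here. Likewise, less RNA per cell and fewer cells that carry the transcript cannot be told apart in such whole-tissue libraries.

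**Figure D1:**
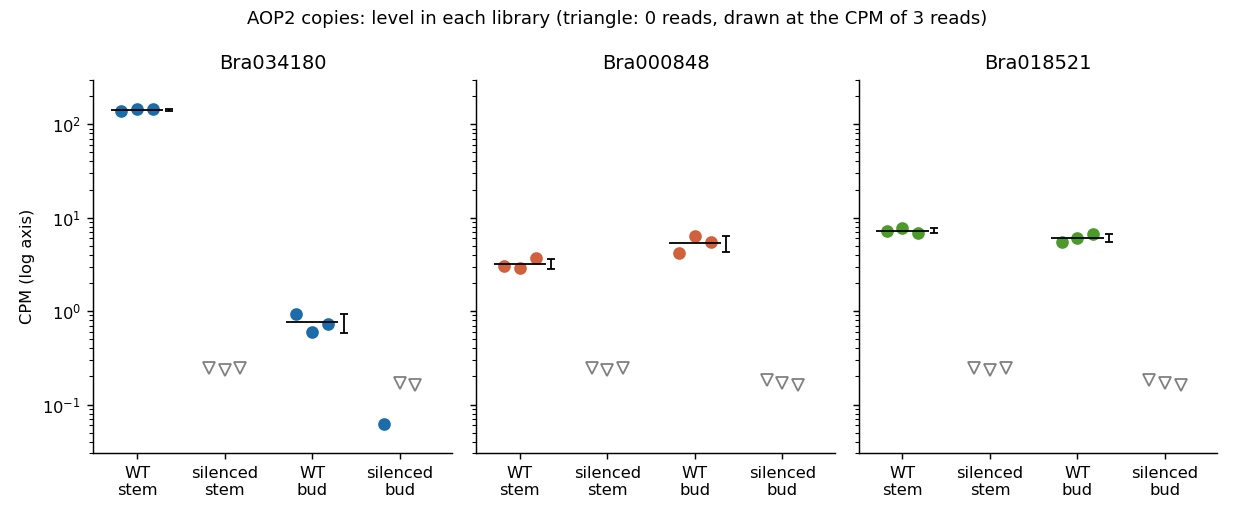
Level of each AOP2 copy in each of the 12 libraries, in CPM (counts per 1000000 reads of the scaled library size) on a log axis; filled points are libraries with reads, horizontal lines the mean of 3 libraries and the bars beside them ± 1 SD. Open triangles are libraries with 0 reads, drawn at the CPM that 3 reads would give. All silenced libraries hold 0 reads of each copy except 1 read of Bra034180 in a silenced bud library, which lies under the triangles because it is drawn at its own level.

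Bra034180, with a coding length of 1320 bases, was the abundant copy of the stem. The 3 wild type stem libraries held 1842, 1931 and 1817 reads of it, which correspond to 140, 145 and 145 CPM, and all 3 silenced stem libraries held 0. The wild type mean was 143 ± 3.06 CPM (SD, n = 3), a spread of 2.13% of the mean against 2.32% for counting error alone. In wild type buds the copy stood at 13, 10 and 13 reads, or 0.942, 0.596 and 0.736 CPM, and in silenced buds at 1, 0 and 0 reads. Wild type and silenced libraries did not overlap in either tissue, as was so, with silenced plants lower, for 32.5% of the tested genes in stem and 41.3% in bud. Among genes with reads in wild type stems the copy ranked 1996 of 31065 by FPKM, which sets reads against gene length and library total. In wild type buds it ranked 26766 of 33644. These ranks leave out 4790 counted genes that have no FPKM value.

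The loss in stem was at least 1755-fold, a lower limit that sets silenced stems at 3 reads over their 3 libraries. In bud the ratio of wild type to silenced was 38.9, with an exact 95% counting interval of 6.55 to 1578, because only 36 reads stood against 1. Without silenced bud replicate 1, which holds that read, buds were at least 9.08-fold lower, and without silenced bud replicate 2 or 3 the ratio was 25.8 or 25.2. All such intervals and limits cover counting error only. Of the 528 tested genes with reads in wild type stems and none in silenced stems, Bra034180 had the highest wild type level, and the median of those genes was 0.428 CPM. That rank follows from picking a copy known to have the deepest fitted loss in stem, so it is no further result about it. Without silenced stem replicate 2 the limit was 1150-fold, since the 3 reads are then spread over fewer libraries.

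Bra000848 has the shortest gene model of the copies, with a coding length of 867 bases, and was the scarcest of them in the stem. Wild type stem libraries held 40, 39 and 46 reads, or 3.03, 2.92 and 3.67 CPM. Wild type bud libraries held 58, 107 and 96 reads, or 4.20, 6.37 and 5.43 CPM. All 6 silenced libraries held 0 reads. The copy was thus higher in each wild type bud library than in any wild type stem library, which held for 45.6% of the tested genes. It varied most in bud, where its mean was 5.34 ± 1.09 CPM (SD, n = 3), a spread of 20.4% of the mean against 10.7% for counting error. The stem mean was 3.21 ± 0.405 CPM. The exact 95% counting intervals of these wild type levels were 4.77 to 6.11 CPM in bud and 2.66 to 3.81 CPM in stem. With the wild type means alone set against 3 silenced reads, the lower limits of the loss were 39.3-fold in stem and 92.7-fold in bud. Without silenced stem replicate 2 the former limit was 25.8-fold. The latter was 61.5-fold without silenced bud replicate 2 and 60.0-fold without silenced bud replicate 3.

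Bra018521, with a coding length of 1287 bases, was carried at similar levels in both wild type tissues. Wild type stem libraries held 94, 104 and 86 reads, or 7.12, 7.79 and 6.87 CPM. Wild type bud libraries held 76, 101 and 118 reads, or 5.51, 6.02 and 6.68 CPM. All 6 silenced libraries held 0 reads here too. The wild type means were 7.26 ± 0.480 CPM in stem and 6.07 ± 0.588 CPM in bud (SD, n = 3), and in both the spread was no larger than counting error gives. On the same basis, which leaves out the counting error of the wild type reads, the lower limits of the loss were 89.0-fold in stem and 105-fold in bud. Without silenced stem replicate 2 the limit in stem was 58.3-fold. In bud it was 69.9-fold without silenced bud replicate 2 and 68.3-fold without silenced bud replicate 3.

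The depth of the libraries bounds what 0 reads can mean. With 3 reads as the floor, a copy without reads could lie at up to 0.249 CPM in the silenced stem library with the highest floor and at up to 0.185 CPM in the silenced bud library with the highest floor. Over the 3 libraries of a group the floor was 0.0816 CPM in silenced stems and 0.0576 CPM in silenced buds. Bra034180 in wild type buds, at 0.758 ± 0.174 CPM (SD, n = 3), lay nearest to these floors, and every other wild type mean of a copy was 3.21 CPM or more.

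Set against all genes, the direction of the change was common and its completeness was not. All 3 copies passed the low-count filter, through their wild type libraries. In stem all 3 copies were called lower in silenced plants at an adjusted p under 0.05 by edgeR's quasi-likelihood test, as were 32.1% of the 28114 genes tested. In bud all 3 were called lower, as were 41.3% of the genes tested. When only the bud libraries were fitted, 2 copies were called, since Bra034180 no longer passed the filter. Nothing can be read from these calls about the copies, because they were picked with these contrasts known. A loss of every read was rarer. Among tested genes with at least 100 reads over the 3 wild type stem libraries, 95 of 20533, or 0.463%, had 0 reads in all silenced stem libraries, and all 3 copies were among them. In bud it was 151 of 22594 genes, or 0.668%, and these included Bra000848 and Bra018521. Bra034180 carried too few wild type bud reads to be counted there. Belonging to these classes is likewise a description, as the silenced levels of the copies were known when they were picked.

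Over both tissues, 190 of 25136 tested genes with at least 100 wild type reads, 0.756%, kept at most 1 read in the 6 silenced libraries together, and the 3 copies were among these 190. Within that group, ordered by the mean CPM of the wild type tissues, Bra034180 ranked 2, Bra018521 ranked 48 and Bra000848 ranked 67. The limit of 1 read was chosen after the data were seen and equals what Bra034180 kept. That the copies belong to this group is therefore no result about them.

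**Figure D2:**
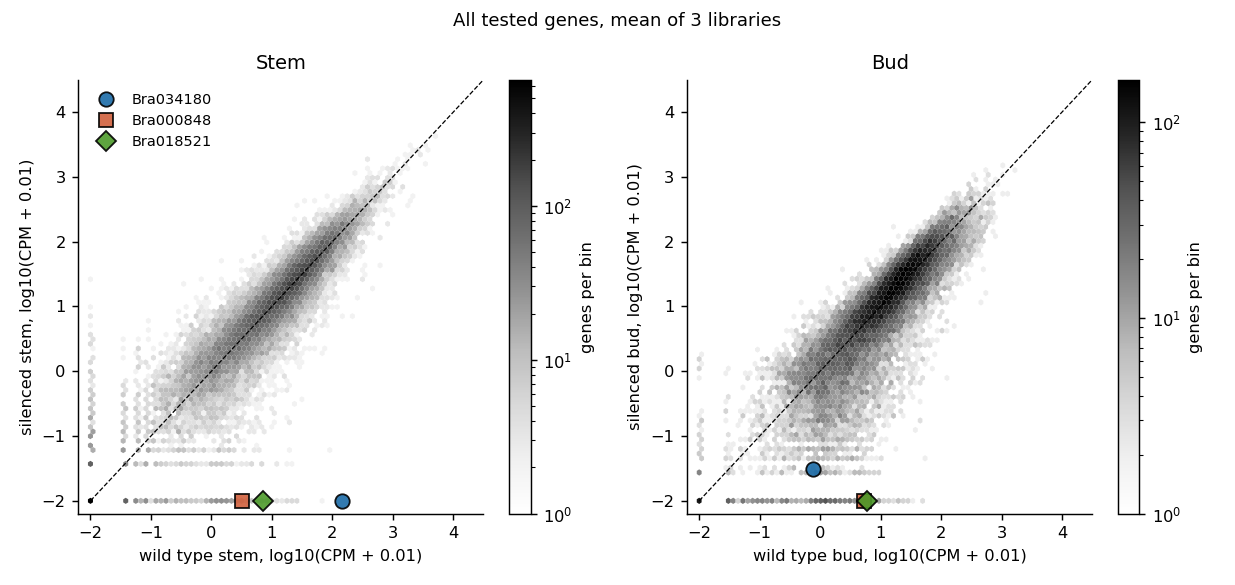
Mean level of 3 silenced libraries against the mean of 3 wild type libraries for all 28114 tested genes, in stem and in bud, as log10(CPM + 0.01); grey shades give the number of genes per bin on a log scale, the dashed line marks equal levels, and the coloured symbols are the AOP2 copies. Genes without silenced reads lie along the bottom edge, where Bra034180 is the farthest to the right in stem; in bud the symbols of Bra000848 and Bra018521 partly cover each other.

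The next comparison sets buds against stems of wild type plants. Bra034180 was much lower in bud, by a fitted log2 difference of -7.57 (3 libraries against 3). No SE is printed for it, since the formula used gave less than the counting error of its 36 bud reads. Its bud libraries lay below all its stem libraries, as for 40.7% of the genes. Bra000848 was higher in bud, with a log2 difference of 0.75 ± 0.21 (SE, 3 libraries against 3). Bra018521 had a log2 difference of -0.25 ± 0.17 (SE) and was not called. For background, edgeR called 40.6% of the genes tested lower in bud and 45.6% higher, at an adjusted p under 0.05.

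The sign for Bra018521 depended on how stems and buds were scaled to each other. Scaling by library totals in place of TMM, which trims extreme genes, moved the median log2 difference of all genes by 0.37, and Bra018521 then stood at 0.11. Its FPKM values, which rest on library totals, were 4.82, 5.28 and 4.66 in wild type stems and 4.81, 5.24 and 5.84 in wild type buds, so the tissues overlapped on that scale. On the TMM scale they did not, bud lying lower, as for 40.7% of the tested genes. Without silenced bud replicate 1, and also without silenced bud replicate 3, the shared fit put Bra018521 at -0.34 and called it lower in bud. Under library totals Bra000848 stood at 1.11 and Bra034180 at -7.20, so both kept their sign.

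Levels of the copies relative to each other within a library need no scaling between tissues. Per length, the order in wild type stems was Bra034180 at 94.5 ± 2.13 FPKM, Bra018521 at 4.92 ± 0.319 FPKM and Bra000848 at 3.23 ± 0.413 FPKM (SD, n = 3), and no neighbours in this order overlapped. In wild type buds the order was Bra000848 at 6.91 ± 1.40 FPKM, Bra018521 at 5.30 ± 0.518 FPKM and Bra034180 at 0.645 ± 0.149 FPKM (SD, n = 3). The first 2 of these overlapped across libraries, the lowest Bra000848 value of 5.45 FPKM lying under the highest Bra018521 value of 5.84 FPKM. Bra034180 lay below both in every bud library.

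As a share of the summed FPKM of the copies, Bra034180 held 92.1% ± 0.0726 (SD, n = 3) in wild type stems, Bra018521 held 4.79% ± 0.312 and Bra000848 held 3.14% ± 0.366. In wild type buds Bra034180 held 5.17% ± 1.87, Bra018521 held 41.4% ± 3.40 and Bra000848 held 53.4% ± 4.95. The lead in bud depended on length: as a share of reads, Bra018521 held 50.0% and Bra000848 43.6%. The summed level was 103 ± 2.38 FPKM in wild type stems and 12.9 ± 1.57 FPKM in wild type buds, so the copies together were lower in bud while 2 of them were not lower on this scale. No shares are given for silenced plants, which had 0 reads of every copy in 5 of their 6 libraries.

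Ratios between copies changed with tissue as well. Bra034180 stood at 19.1, 18.1 and 20.6 times the FPKM of Bra018521 in the wild type stem libraries, and at 0.167, 0.0965 and 0.107 times in the wild type bud libraries. Bra000848 stood at 0.632, 0.557 and 0.794 times the FPKM of Bra018521 in stems and at 1.13, 1.57 and 1.21 times in buds. For both ratios the tissues did not overlap, and Bra000848 exceeded Bra018521 per length in each bud library.

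**Figure D3:**
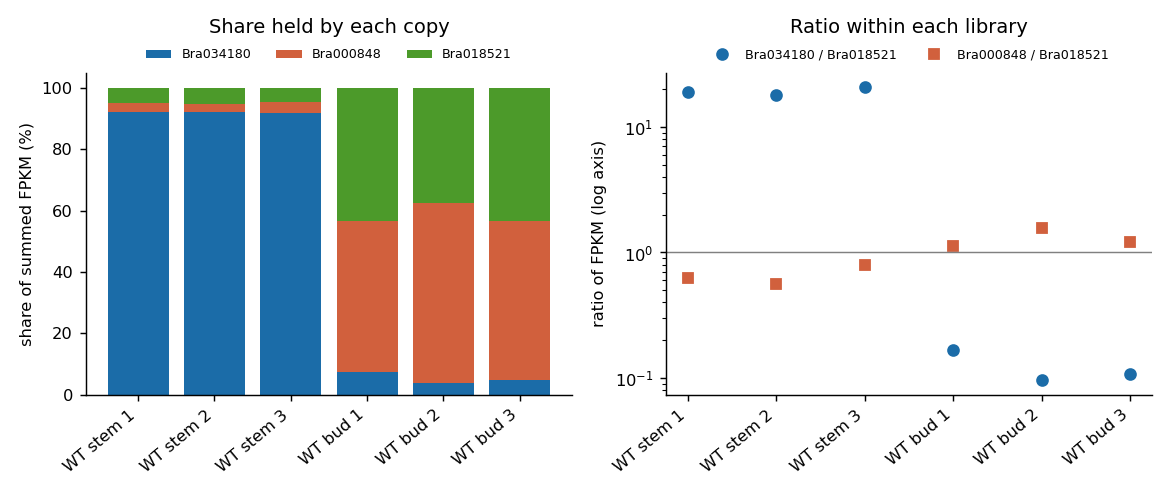
Left, share of the summed FPKM (%) held by each AOP2 copy in the 6 wild type libraries; right, ratio of the FPKM of Bra034180 and of Bra000848 to that of Bra018521 in the same library, on a log axis with a line at equal levels. Bra034180 fills about 92.1% of the stem bars and 5.17% of the bud bars on average, and the ratio of Bra000848 to Bra018521 lies under the line in stems and above it in buds.

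Silenced buds and silenced stems could not be set against each other for these copies, since both groups lay at or under the floor, and no fold is given. Of the 3 copies 0 were called by edgeR, 0 had an unadjusted p under 0.05 and 0 were called by DESeq2, against 85.1% of all genes called by edgeR. For Bra000848 and Bra018521 the silencing effects in stem and in bud are both lower limits, so their difference could not be measured. For Bra034180 the stem limit of 1755-fold stands beside a bud ratio of 38.9, whose 95% counting interval was 6.55 to 1578. With 36 wild type bud reads, a bud loss as deep as the stem limit could not have been measured. A more positive effect in bud was called by edgeR for this copy, as for 35.5% of the genes tested. That call was lost without silenced bud replicate 1, which holds the single silenced read.

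The profile of each copy over the 12 libraries was then compared with 22360 other genes that reached at least 5 CPM in a group, by Pearson's r of log2(CPM + 1). These correlations describe the libraries, which fall into 4 tight groups, and carry no p-value. Bra000848 and Bra018521 were like each other, with r = 0.97. Both had 0 reads in all 6 silenced libraries, which by itself raises this r. From wild type stem to bud their mean CPM went opposite ways on the TMM scale. Bra000848 went from 3.21 to 5.34 CPM and Bra018521 from 7.26 to 6.07 CPM. Bra034180 correlated with Bra018521 at 0.70 and with Bra000848 at 0.52. An r over 0.95 was reached by 293 genes for Bra034180, 83 for Bra000848 and 97 for Bra018521.

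The genes nearest to Bra034180 were Bra021614 with r = 0.999 and Bra009605 with r = 0.998. In wild type plants Bra021614 stood at 30.7 ± 1.87 CPM in stem and at 0.531 ± 0.0940 CPM in bud (SD, n = 3), with 0 reads in all 6 silenced libraries. In stems Bra009605 stood at 423 ± 5.24 CPM in wild type and at 25.8 ± 2.101 CPM in silenced plants. Its bud levels were 30.2 ± 2.63 CPM in wild type and 23.5 ± 0.571 CPM in silenced plants. A high r thus did not require the loss of all reads.

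Nearest to Bra000848 were Bra035638 with r = 0.995 and Bra040350 with r = 0.994. In wild type plants Bra035638 stood at 19.5 ± 0.522 CPM in stem and at 46.9 ± 1.28 CPM in bud, and Bra040350 at 16.5 ± 0.870 CPM in stem and at 30.5 ± 0.750 CPM in bud (SD, n = 3). Both had 0 reads in all 6 silenced libraries. Nearest to Bra018521 were Bra022809 and Bra007200, both with r = 0.996. Bra022809 went from 145 ± 1.28 to 39.6 ± 2.39 CPM in stems and from 121 ± 7.83 to 41.4 ± 1.41 CPM in buds. Bra007200 was at 11.2 ± 0.820 CPM in the stem and 6.99 ± 0.327 CPM in the bud of wild type plants, with 0 reads in the 6 silenced libraries. The files give no names for these 6 identifiers.

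**Figure D4:**
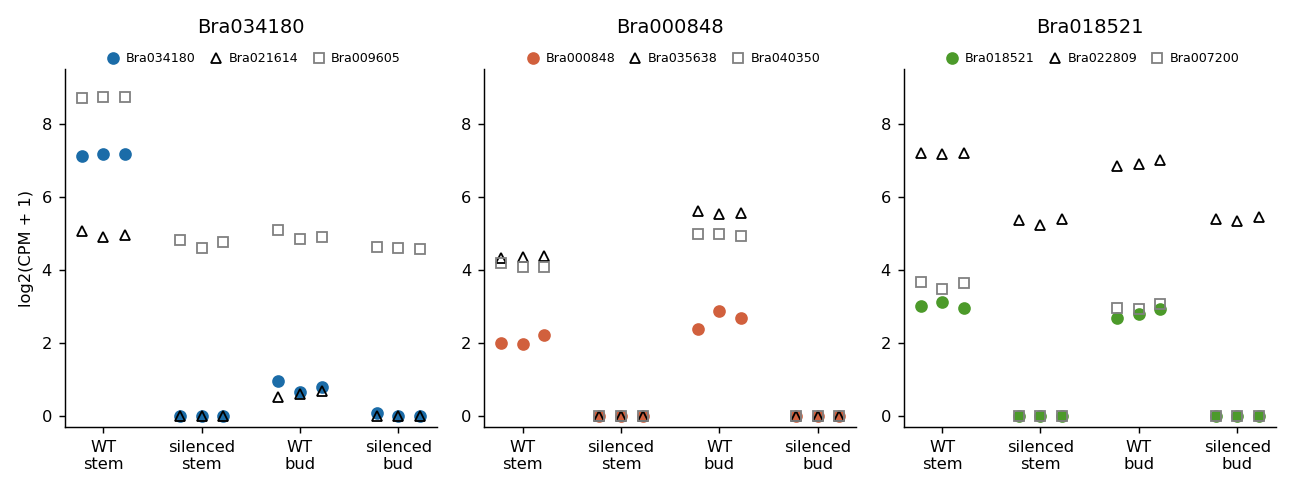
Level as log2(CPM + 1) in each of the 12 libraries for each AOP2 copy (filled circles) and the 2 genes with the highest Pearson's r to it (open symbols), by group. Of these 6 genes, Bra021614, Bra035638, Bra040350 and Bra007200 lie at 0 in all silenced libraries, while Bra009605 and Bra022809 have reads in every library.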

How the data were processed

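RNA was extracted with Trizol and sequenced by a standard Illumina protocol, per the labels' protocols. Per the submitters' processing notes, featureCounts 2.0.1, TopHat2, Bowtie 1.0.1 and HISAT2 2.1.0 were used, in roles that are not named. The genome build, strand and handling of multiply mapped reads are not given in the sources used. How far the copies share sequence was not tested, and reads that fit more than 1 of them may have been divided or dropped. The deposited count table holds raw read counts for 41020 genes. The deposited FPKM values derive from those counts: library totals and 1 length per gene, always a multiple of 3 and so a coding length, return the values of 35651 genes (lengths whole within a relative 1e-06).

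Counts were tested with edgeR 4.0.16 (R 4.3.3) after filterByExpr (minimum count 10, 28114 genes kept) and TMM scaling, in 1 quasi-likelihood fit of all 12 libraries with Benjamini-Hochberg adjustment. CPM uses the TMM library sizes. The SE is the fitted log2 difference divided by the square root of its F statistic. On simulated stem counts (24787 genes), 48 of 50 genes changed 2-fold and 20 of 50 changed 1.2-fold were recovered, with 4 false calls. In that simulation few genes changed, as many up as down, and no total loss was set. Far more genes were called in the real stems (19598), so these counts do not give the error rate of the fit there. The copies and lists were chosen with earlier results of these data known. Named besides the copies were the 2 genes with the highest r to each. The reference table (CAAS_Brap_v3.01) paired 1 of the 41020 identifiers with a name, none of the copies and 0 of 44 glucosinolate genes listed, so the rest of the pathway was not tested and no sequences are printed. Replicates of a group differed by more than counting error (chi-square per degree of freedom 1.58 to 1.73, over genes with at least 100 reads in a pair of libraries). Alternatives were other scalings, no filter, DESeq2 1.42.0, smaller fits, the replicate number as a block, limma 3.58.1 on log2(FPKM + 1) and log2(FPKM + 0.1), and leaving out each library.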

Additional observations from a re-analysis of the deposited data

Results flagged for a closer look

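The effect of silencing on Bra034180 differed between tissues in edgeR's interaction fit, with a fitted log2 value of 9.27 for bud minus stem; 35.5% of all genes tested were called in that direction. Wild type buds held only 36 reads of the copy, which limits the loss that can be measured in bud. The size of the fitted value depends on the prior count, since silenced stems held 0 reads and silenced buds 1. Without silenced bud replicate 1, the library that holds this read, the copy was no longer called. The copy was picked with both contrasts known, so the call is no independent evidence.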

How the results depend on the processing

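The number of copies called lower in silenced stems was 3 under every alternative run, and in silenced buds 3 under all but the fit of the bud libraries alone. The number called in the interaction was 1, and 0 to 1 when single libraries were left out. It was 2 with limma on log2(FPKM + 1), with and without its filter, and on log2(FPKM + 0.1). Bra000848 and Bra018521 held 0 reads in all silenced libraries. An interaction called for either can reflect only its wild type levels and the constant added to FPKM. Bra018521 in wild type bud against stem changed sign to 0.11 with library totals, to 0.087 with limma on log2(FPKM + 1), with and without its filter, and to 0.10 on log2(FPKM + 0.1). As shares of reads, Bra034180 held 93.2% and Bra000848 2.09% in wild type stems, and Bra000848 held 43.6% and Bra018521 50.0% in wild type buds. With the replicate number as a block 3 copies were called in stem, 3 in bud, 1 in the interaction and 2 between wild type tissues, as without it; over all genes the block gave 19458 calls in stem against 19598. Same-numbered libraries shared no deviation (correlations of -0.0148 to 0.0116). On log2(FPKM + 1) 1 of the 2 genes nearest to Bra034180 was again among its nearest, and 0 for each of the other copies, so these names depend on the scale. The lower limits of the folds and the bud ratio of Bra034180, whose alternatives were added after the data were seen, were smaller without a silenced library because the floor of 3 reads, or the single read, is then spread over fewer libraries. Depth limits Bra034180 in bud most, with 36 wild type reads.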

Other observations

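Loss of nearly all reads over both tissues was more common than gain. Against the 190 genes with at least 100 wild type reads and at most 1 silenced read, 10 of 24104 tested genes, 0.0415%, had at least 100 reads over the 6 silenced libraries and at most 1 over the 6 wild type libraries. These limits were chosen after the data were seen, and the difference was not tested. Whether the plants share a genetic background is not stated, and the part of background or read mapping in this imbalance was not tested. The median level of the 190 genes, as the mean of the wild type tissues, was 2.90 CPM, below that of each copy. Profiles opposite to those of the copies also occurred: an r under -0.95 over the 12 libraries was found for 101 genes with Bra034180, 69 with Bra000848 and 83 with Bra018521.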
